A study of Homo sapiens with 9 samples.

Results

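Antisense RNA genes are transcribed from the DNA strand opposite another gene. The 200 most abundant ones in KHM-5M, a human thyroid cancer cell line, were followed in cells given DMSO alone (the vehicle) or YK-4-279 at 0.3 μM or 1 μM for 24 h, with 3 samples in each of the 3 groups. YK-4-279 is a small molecule made to block ETS transcription factors, and the study asked what it does to thyroid cancer cells. All samples were of the same line, and the labels name no separate cultures, so that p-values measure only the spread between these samples. The 200 genes were those with the highest mean read count over the 3 DMSO samples among 5577 genes that the deposited table of 58735 genes annotates as antisense, leaving out KCNQ1OT1 and names starting with SNHG. Of the 5577, 3162 had a count in DMSO.

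Antisense RNAs arise in several arrangements. Some start beside the promoter of a coding gene and run away from it, some start near its end and run into it, and some lie within its introns. A few are known to act on the neighbouring gene, for example by recruiting chromatin regulators, masking splice sites or carrying microRNAs and small nucleolar RNAs in their introns. Many are short-lived nuclear RNAs that the exosome degrades, and for most no function has been shown.

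Mean DMSO counts of the 200 genes ran from 47 to 2305.67, with a median of 80.8, and 70 genes exceeded 100. The last places fell on a tie of 6 genes at a mean of 47. AC090673.1, GPRC5D-AS1 and AC004803.1 were kept by the order of their identifiers, and AC012073.1, AC006333.2 and SLFNL1-AS1 fell outside, as did SLC25A25-AS1 at 45. These levels chose the genes and are a description. The counts of the 9 samples summed to between 16903251 and 18238884, so a count of 0 allowed up to 0.164 to 0.177 CPM, a unit that scales a count by the size of its library (3 counts, counting error only). The 200 genes together held 0.152%, 0.162% and 0.154% of all counts in the DMSO samples, 0.146%, 0.151% and 0.139% at 0.3 μM, and 0.132%, 0.123% and 0.126% at 1 μM. Of the thyroid markers, PAX8 was at 161 CPM or more in every sample, while TG, TSHR, SLC5A5, NKX2-1 and DIO1 did not exceed 0.55. Leukocyte and endothelial markers did not exceed 6 counts in any sample.

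A protein-coding gene on the opposite strand overlapped 177 of the 200 genes, and the one with the largest overlap is called the sense partner. In 56 pairs the 2 genes overlapped head to head, with their 5′ ends together, and in 52 they overlapped tail to tail. Another 51 antisense genes lay inside the partner and 18 spanned it. Of the rest, 15 were divergent, starting within 5 kb of a coding gene without overlap, and 8 had neither. By length-scaled level (FPKM) the antisense RNA was below its sense partner in 127 pairs and above it in 46, and 4 partners were listed at 0. The median antisense level was 29.2% of the sense level, with quartiles of 11.5% and 109%. By the exons of GENCODE v44 on GRCh38, 101 genes had most of their exonic bases outside any opposite-strand gene, 81 had most in opposite-strand introns, 16 in opposite-strand exons, and 2 had no exon model there. For some genes these exons differ in length from the deposited table. AC006059.1 has 3245 exonic bases there but a deposited length of 785, whereas GAS6-AS1 has 7169 in both. Exon positions therefore describe this annotation and may include bases where no reads were counted. The methods name a stranded library kit and the labels one that does not mark strand, and the use of strand in counting is not given in the sources used here. Reads of an antisense gene and of an opposite-strand gene at the same bases therefore cannot be told apart.

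At 1 μM the antisense RNAs that passed the test all moved in one direction. Of the 200 genes, 67 were lower than in DMSO and 0 were higher by edgeR's quasi-likelihood test at a Benjamini-Hochberg adjusted p under 0.05, over 15617 genes tested. Among all genes tested 9.95% were lower and 7.67% higher (17.6% in either direction), and among genes in the same range of DMSO counts 10.9% were lower. The median log2 fold change of the 200 genes was −0.34, against −0.01 for all genes, and 161 of the 200 values were below 0. In bulk RNA, fewer cells making an RNA and less of it per cell cannot be told apart. In 60 of the 67 genes the fall was also at least 1.5-fold, which held for 4.14% of all genes. In 86 of the 200 genes every 1 μM sample was below every DMSO sample and in 12 above, beside 16.3% and 21.1% of all genes. DESeq2 called 52 lower (7.47% of all genes) and 0 higher, and at an unadjusted p under 0.05 edgeR gave 86 lower (16.7% of all genes) and 7 higher. Without 1 μM replicate 2 the count was 44, and without DMSO replicate 1 or 1 μM replicate 1 a gene was called higher in each case.

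All 200 genes passed the filter on low counts in each comparison, so no member is missing from the counts. Some passed only through the group in which they were high, such as GAS6-AS1 with 18, 7 and 7 counts at 1 μM. The genes were chosen on the DMSO samples, so the comparisons with DMSO are not independent of the choice. When 200 genes were instead chosen by the mean of all 9 samples, 57 were called lower and the median was −0.28. The comparison of 1 μM with 0.3 μM uses no DMSO sample. There, 40 of the 200 genes were lower at 1 μM and 0 were higher (edgeR, adjusted p under 0.05; 12.6% of all genes in either direction), against 6.75% lower and 5.85% higher among all 15583 genes tested and 7.52% lower in the same range of DMSO counts. The median was −0.23, with 142 values below 0. DESeq2 called 33 lower (6.12% of all genes) and 0 higher, and the unadjusted count was 70 lower (14.3% of all genes) and 6 higher. The number called was 23 without 1 μM replicate 2 and 25 without 0.3 μM replicate 2.

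At 0.3 μM, 0 of the 200 genes passed, as did 0 of all 15762 genes tested (0%). The lowest adjusted p of a member was 0.995 by edgeR. At an unadjusted p under 0.05 there were 10 lower and 1 higher, 5.5% of the 200 genes beside 3.77% of all genes, or 2.13% for lower alone, and DESeq2 called 0 at an adjusted p under 0.05. The median log2 fold change was −0.10 and 142 values were below 0. Leaving out single samples gave medians of −0.13 to −0.05. Over all genes the median was 0.0009, with 7835 of 15762 values below 0. The 200 most abundant intergenic long RNA genes, chosen in the same way, had a median of −0.07 with 134 values below 0. The 200 antisense genes were chosen on the DMSO samples, so their values against DMSO are not independent of the choice. Relative to the DMSO mean, the per-sample medians over the 200 genes were −0.03, 0.01 and 0.00 on the log2 scale in DMSO, −0.06, −0.02 and −0.13 at 0.3 μM, and −0.29, −0.33 and −0.24 at 1 μM. All 3 samples at 1 μM lay below the other 6. The per-sample medians of the sense partners stayed between −0.01 and 0.03 in all 9 samples.

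**Figure D1:**
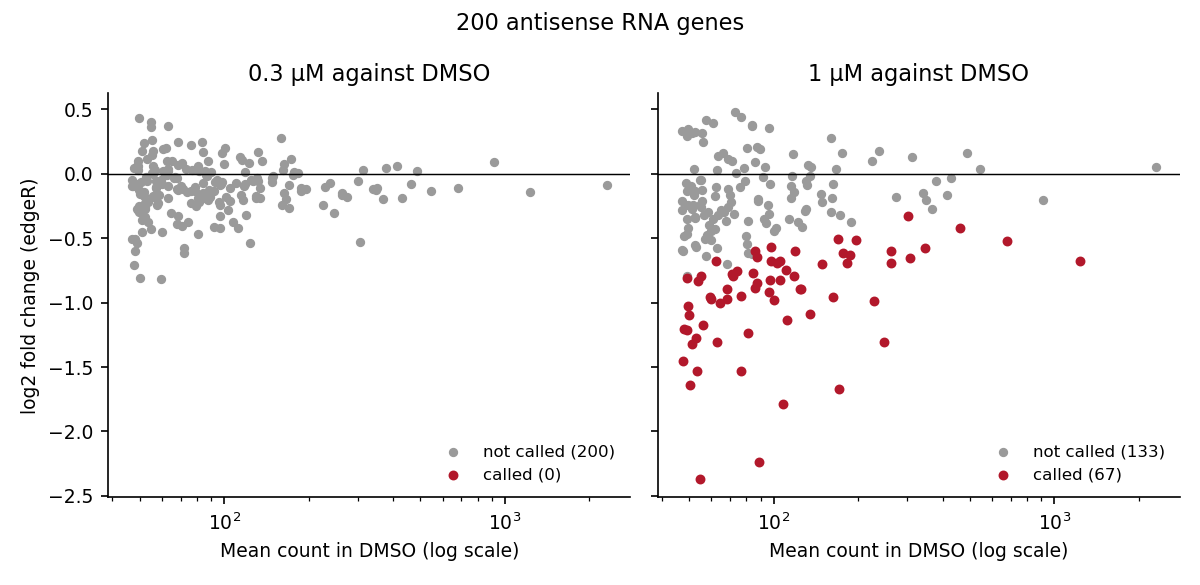
Each point is 1 of the 200 antisense RNA genes, with its mean DMSO count on a log axis and its log2 fold change by edgeR for 0.3 μM (left) and 1 μM (right) against DMSO. At 0.3 μM the points lie around −0.10 with 0 called, while at 1 μM 67 genes are called (red), all below 0.

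The members were compared with other classes at 1 μM against DMSO. Of the 200 most abundant intergenic long RNA genes, 37 were lower and 5 higher, with a median of −0.16. Of 109 sense-intronic RNA genes, which lie in introns on the same strand as their host, 20 were lower and 0 higher, with a median of −0.53. Antisense genes below rank 200 gave 56 lower and 3 higher of 549, with a median of −0.32. Protein-coding genes in the members' range of counts were lower in 932 and higher in 934 of 9752. These are counts side by side, and the differences between classes were not tested. Among the members themselves, 30 of 71 genes with a mean DMSO count of 100 or more were called and 37 of 129 below that, with medians of −0.32 and −0.34.

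**Figure D2:**
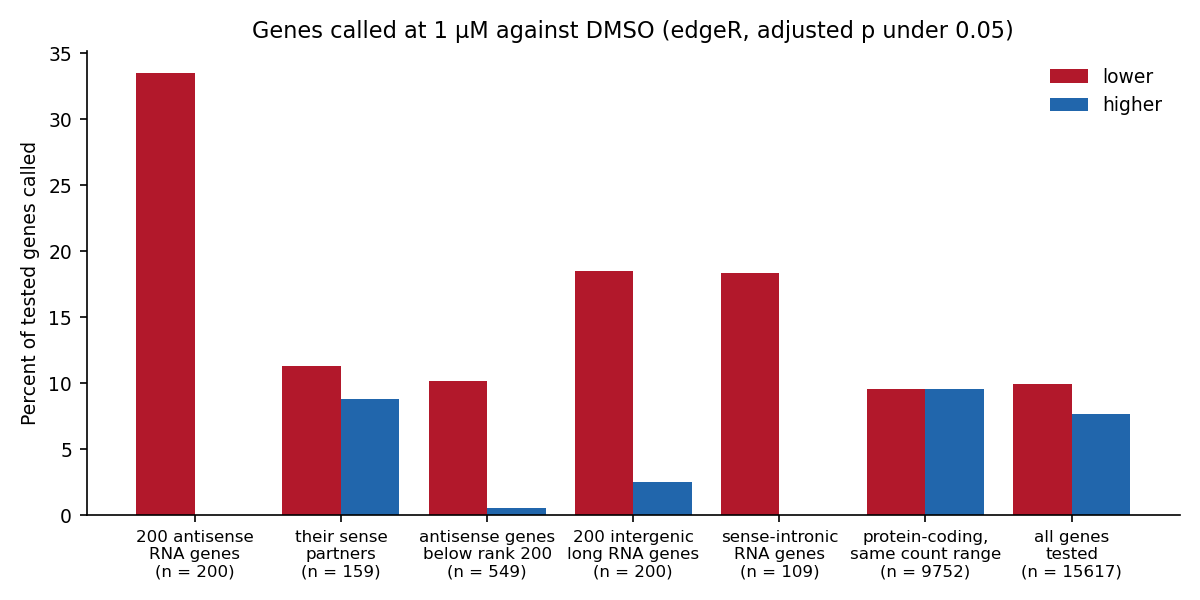
Bars give the percent of tested genes called lower (red) or higher (blue) at 1 μM against DMSO in each class, with the number tested under each name. The 200 antisense RNA genes have 33.5% lower and no bar for higher, while protein-coding genes of the same count range have bars of nearly equal height.

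In 7 of the 10 largest falls at 1 μM the sense partner was not called. Most genes were not called in this comparison (17.6% of all genes tested were, in either direction), so this count is only a description. GAS6-AS1 (ENSG00000233695, GRCh38 chromosome 13, 113815630 to 113845744, plus strand) overlaps the 3′ end of GAS6, which encodes a ligand of the AXL receptor family. It was counted 63, 56 and 45 times in the DMSO samples, 51, 31 and 42 times at 0.3 μM, and 18, 7 and 7 times at 1 μM. All 3 samples at 1 μM lay below all others. The log2 fold change at 1 μM was −2.37 (SE 0.34, edgeR adjusted p = 0.00044), a 5.17-fold fall, while GAS6 gave −0.06 (SE 0.07, adjusted p = 0.598) with 3284 to 3855 counts in all 9 samples. Of the exonic bases of GAS6-AS1, 93.3% lie in opposite-strand introns.

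AC124319.2 (ENSG00000263069, chromosome 17, 80351828 to 80415168, minus strand) lies tail to tail with RNF213, a large ubiquitin ligase. It was counted 93, 108 and 66 times in DMSO, 76, 75 and 89 times at 0.3 μM, and 18, 9 and 30 times at 1 μM. Its log2 fold change was −2.23 (SE 0.32, edgeR adjusted p = 0.00044), and that of RNF213 was −0.23 (SE 0.06, adjusted p = 0.0108). LINC00894 (ENSG00000235703, chromosome X, 149938628 to 150224580, plus strand) starts head to head with CXorf40B and has 98.1% of its exonic bases outside any opposite-strand gene. Counts were 103, 141 and 79 in DMSO, 104, 79 and 70 at 0.3 μM, and 31, 21 and 42 at 1 μM, with a log2 fold change of −1.79 (SE 0.26, edgeR adjusted p = 0.000475). CXorf40B gave −0.05 (SE 0.08, adjusted p = 0.683). In both genes the 1 μM samples were below the other 6.

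Another 5 of the 10 largest falls lie inside the sense gene, and 4 of them are described here. AL133230.1 is within PTPN1, which encodes the tyrosine phosphatase PTP1B, on chromosome 20 (50570975 to 50578041, minus strand). Its counts were 143, 208 and 160 in DMSO, 130, 153 and 149 at 0.3 μM, and 52, 47 and 63 at 1 μM, a log2 fold change of −1.67 (SE 0.18, edgeR adjusted p = 4.92e-05), and PTPN1 gave −0.01 (SE 0.05). AL355488.1, inside SLC16A4 of the monocarboxylate transporter family, had 226, 243 and 271 counts in DMSO, 194, 246 and 174 at 0.3 μM, and 138, 94 and 72 at 1 μM. In both, the groups at 1 μM and DMSO did not overlap. AL355488.1 fell by 1.31 on the log2 scale (SE 0.17, edgeR adjusted p = 0.000195), beside 0.26 (SE 0.14, adjusted p = 0.219) for SLC16A4. It shares its strand with LAMTOR5-AS1, a gene whose exons do not cover its own.

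AL138789.1 in DEPDC1 and AC015849.3 in TAF15 also lay inside the partner. TAF15 is an RNA-binding protein of the FET family. AL138789.1 had 59, 49 and 43 counts in DMSO, 45, 43 and 50 at 0.3 μM, and 17, 16 and 16 at 1 μM. AC015849.3 had 68, 96 and 65, then 70, 50 and 79, then 26, 28 and 26 counts in the same order of groups. In both, the 1 μM samples lay below all other samples, and the log2 fold changes were −1.64 and −1.53 (edgeR adjusted p = 0.00112 and 0.000582). The partners DEPDC1 and TAF15 gave −0.09 and −0.31, and neither passed the test.

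The remaining 2 of the 10 differed in what the sense gene did. AC003102.1, head to head with UBTF, the upstream binding factor of RNA polymerase I, had 45, 52 and 46 counts in DMSO, 28, 31 and 30 at 0.3 μM, and 28, 16 and 9 at 1 μM. The antisense RNA fell by 1.45 on the log2 scale (SE 0.32, edgeR adjusted p = 0.00731) and UBTF rose by 0.34 (SE 0.06, adjusted p = 0.0013). AC006059.1, tail to tail with NKTR, a cyclophilin-related protein, had 45, 64 and 44 counts in DMSO, 30, 42 and 49 at 0.3 μM, and 28, 18 and 16 at 1 μM. Here both genes fell, AC006059.1 by 1.32 (SE 0.28, edgeR adjusted p = 0.00541) and NKTR by 0.93 (SE 0.07, adjusted p = 6.33e-06). Of the exonic bases of AC006059.1 in GENCODE v44, 90.7% lie in opposite-strand introns. These are 3245 bases, against a length of 785 in the deposited table, so the counted bases may lie elsewhere. Against 0.3 μM, AC003102.1 and AC006059.1 did not pass (adjusted p = 0.189 and 0.054), while the other 8 of the 10 did.

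**Figure D3:**
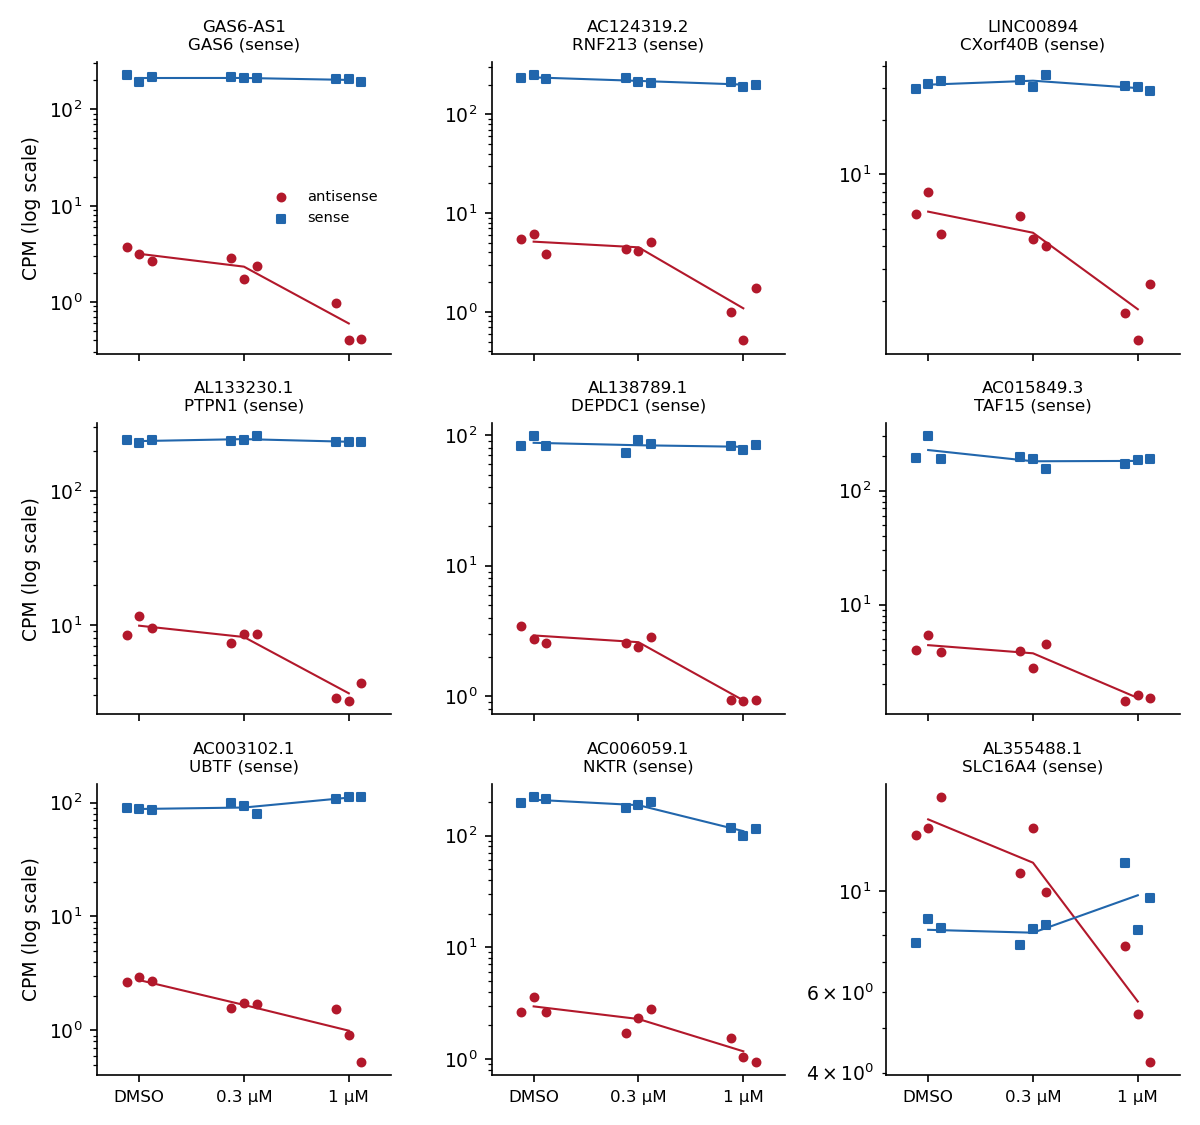
CPM on log axes for 9 of the 10 antisense RNA genes with the largest falls at 1 μM (red circles) and their sense partners (blue squares), 1 point per sample, with lines through the group means. In all 9 panels the red points at 1 μM are below those in DMSO, while the blue points are level in most panels, fall for NKTR and rise for UBTF.

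The most abundant members included genes that fell and genes that did not pass the test. FGD5-AS1, the highest, had 2208, 2372 and 2337 counts in DMSO, 2228, 2445 and 1966 at 0.3 μM, and 2631, 2340 and 2301 at 1 μM, and the groups overlapped (log2 fold change 0.05, SE 0.06, edgeR adjusted p = 0.58). THAP9-AS1, opposite THAP9, a gene related to P element transposases, had 1089, 1456 and 1148 counts in DMSO, 934, 1219 and 1250 at 0.3 μM, and 883, 715 and 745 at 1 μM. All 3 samples at 1 μM were below the other 6, and the log2 fold change was −0.68 (SE 0.09, edgeR adjusted p = 0.000236). THAP9-AS1 lies within the body of SEC31A on its own strand, and 11% of its exonic bases are shared with exons of that strand. ZFAS1, which carries SNORD12 small nucleolar RNAs, was counted 975, 927 and 836 times in DMSO, 933, 895 and 1151 times at 0.3 μM, and 905, 842 and 664 times at 1 μM, with overlapping groups (−0.21, SE 0.09, edgeR adjusted p = 0.133).

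GABPB1-AS1 is opposite GABPB1, which encodes the beta subunit of the ETS-family factor GABP. It was counted 664, 736 and 644 times in DMSO, 656, 682 and 594 times at 0.3 μM, and 547, 417 and 478 times at 1 μM, lower in every 1 μM sample than in any other. Its log2 fold change was −0.52 against DMSO (SE 0.09, edgeR adjusted p = 0.00115) and −0.40 against 0.3 μM (SE 0.09, adjusted p = 0.00949, and 0.0604 without 1 μM replicate 2). GABPB1 itself had 369, 500 and 399 counts in DMSO and 483, 370 and 366 at 1 μM, which overlapped (−0.08, SE 0.11, adjusted p = 0.677). PSMA3-AS1, opposite the proteasome subunit gene PSMA3, had 414, 516 and 459 counts in DMSO and 408, 343 and 305 at 1 μM, and fell by 0.42 on the log2 scale (SE 0.10, edgeR adjusted p = 0.0105, and 0.0583 without 1 μM replicate 3), while PSMA3 gave 0.02 (SE 0.07). OTUD6B-AS1, HCG18, AC099850.3, LOXL1-AS1 and AC020916.1, the last of which hosts the microRNAs MIR23A, MIR27A and MIR24-2, had log2 fold changes between −0.17 and 0.16 and did not pass.

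Of 17 members on a list of antisense RNAs with a described role, 3 were lower at 1 μM and 0 higher, with a median of −0.19, beside 9.95% lower among all genes tested and 33.5% among the 200. The 3 were GABPB1-AS1, PSMA3-AS1 and THUMPD3-AS1, the last with an adjusted p of 0.045 by edgeR (log2 fold change −0.32) that rose to 0.163 without DMSO replicate 1 and to 0.122 with DESeq2. The others on this list did not pass. CDKN2B-AS1, also called ANRIL, had 63, 62 and 81 counts in DMSO and 81, 42 and 53 at 1 μM (−0.25, SE 0.24, edgeR adjusted p = 0.497). Its groups overlapped, whereas CDKN2B, the gene for the CDK4 and CDK6 inhibitor p15, rose by 0.50 (SE 0.08, adjusted p = 0.000829), and the antisense to sense ratio described further on was −0.75 (SE 0.21, limma adjusted p = 0.00629, and 0.142 with 1 sample left out). DLEU2, the host of MIR15A and MIR16-1, gave −0.20 (SE 0.22), ZEB1-AS1 −0.19 (SE 0.13) and TMPO-AS1 −0.02 (SE 0.17). NUTM2A-AS1 gave 0.13 (SE 0.12), but near-identical copies of this locus exist and its counts are uncertain. SBF2-AS1, with 53, 63 and 56 counts in DMSO and 70, 87 and 75 at 1 μM, gave 0.41 (SE 0.19, edgeR adjusted p = 0.148), and these groups did not overlap.

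Some members in HOX clusters were looked at after their values had been seen. HOXD-AS2 had 173, 228 and 162 counts in DMSO, 219, 161 and 143 at 0.3 μM, and 122, 125 and 120 at 1 μM, and fell by 0.63 on the log2 scale (SE 0.14, edgeR adjusted p = 0.00671). HOXB-AS1 had 44, 52 and 48, then 31, 38 and 28, then 18, 22 and 23 counts in the same order, with no overlap between the groups. At 0.3 μM this gene, like all other members, did not pass the test, and no dose pattern is read from it. Its log2 fold change at 1 μM was −1.20 (SE 0.26, edgeR adjusted p = 0.00595), and HOXB3, the homeobox gene on the other strand, fell by 0.63 (SE 0.08, adjusted p = 0.000222). HAGLR in the HOXD cluster gave 0.30 (SE 0.22, adjusted p = 0.389).

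At 0.3 μM the members with the lowest unadjusted p were C1RL-AS1 and AC137932.1, neither of which passed after adjustment. C1RL-AS1, opposite a gene for a complement C1r-like protease, had 283, 371 and 261 counts in DMSO, 260, 194 and 191 at 0.3 μM, and 230, 177 and 183 at 1 μM. The 0.3 μM and 1 μM values overlapped each other and both lay below DMSO. Its log2 fold change was −0.53 at 0.3 μM (SE 0.14, edgeR unadjusted p = 0.00194, adjusted p = 0.995) and −0.65 at 1 μM (SE 0.13, adjusted p = 0.00328). AC137932.1, inside ANKRD11, had 111, 144 and 117 counts in DMSO, 81, 87 and 93 at 0.3 μM, and 75, 52 and 76 at 1 μM, with log2 fold changes of −0.54 (SE 0.16, edgeR adjusted p = 0.995) and −0.89 (SE 0.18, adjusted p = 0.00397). Over all 200 genes, the group means fell in order from DMSO to 0.3 μM to 1 μM in 96. The genes were chosen on their DMSO counts, and the share among all genes was not counted. No dose pattern is read from this count.

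The change was then read by the arrangement on the other strand, which the choice of the genes did not use. Of 51 genes inside the partner, 24 were called lower at 1 μM against DMSO, with a median of −0.60. Head-to-head genes gave 16 of 56 (median −0.27), tail-to-tail genes 16 of 52 (−0.32), genes spanning the partner 5 of 18 (−0.28), divergent genes 4 of 15 (−0.16) and those with neither 2 of 8 (−0.33). Against 0.3 μM, 15 of the 51 inside genes were called with a median of −0.44, beside 8 of 56 and −0.20 for head-to-head and 10 of 52 and −0.27 for tail-to-tail genes. Among all genes tested against 0.3 μM, 6.75% were lower. By exon position at 1 μM against DMSO, 8 of 16 genes mostly in opposite-strand exons were called (median −0.56). The count was 29 of 81 for genes mostly in opposite-strand introns (−0.43) and 30 of 101 for those mostly outside opposite-strand genes (−0.25). The 20 genes with no exonic base inside any opposite-strand gene gave 5 called and a median of −0.16. Genes with a single exon in every transcript gave 8 of 20 and genes with more 59 of 178, with medians of −0.36 and −0.32. The differences between these classes were not tested. At 1 μM against DMSO every class had a called share above the 9.95% of all genes that were lower.

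**Figure D4:**
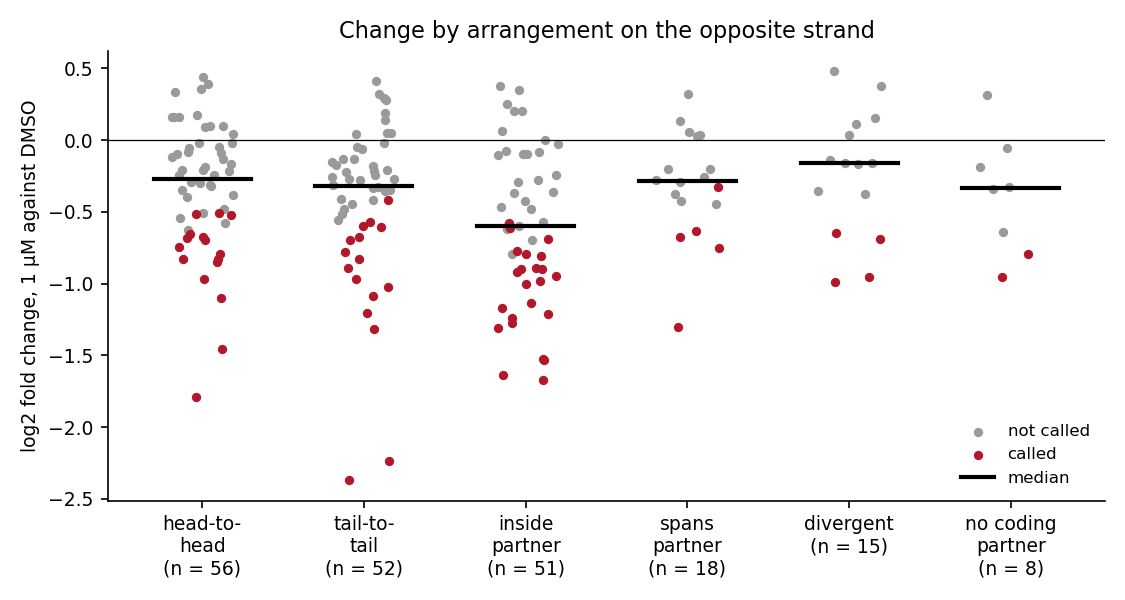
Each point is an antisense RNA gene, grouped by its arrangement with the opposite-strand coding gene, with its log2 fold change at 1 μM against DMSO on the vertical axis, black bars for the medians and red for genes called by edgeR. The median is lowest, at −0.60, for genes inside the partner, and red points occur in all 6 classes, always below 0.

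The sense partners were called in both directions at shares near those of all genes. Of 159 distinct partners tested at 1 μM against DMSO, 18 were lower and 14 higher (edgeR), 20.1% in either direction beside 17.6% of all genes, and 11.3% lower beside 9.95%. Their median was −0.01, and among the 15 divergent coding neighbours 1 was lower and 1 higher. To compare both genes of a pair directly, the log2 ratio of antisense to sense CPM (with 0.5 added to each, which understates changes of low genes) was tested with limma in 598 pairs of the whole table, 160 of them with a member. At 1 μM against DMSO the ratio was lower in 56 and higher in 3 of the 160 pairs, beside 22.2% lower and 1.84% higher (24.1% in either direction) among all pairs. The median difference was −0.35. Without 1 μM replicate 2 the number called was 35 in place of 59. Against 0.3 μM the ratio was lower in 31 and higher in 4, beside 9.4% and 1.34% of all pairs (10.7% in either direction), with a median of −0.27. At 0.3 μM against DMSO 0 of 160 pairs passed by limma at an adjusted p under 0.05 (0% of all 655 pairs).

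Among the 60 pairs in which the antisense RNA fell at 1 μM, the sense gene was not called in 44, also fell in 12 and rose in 4. In all 160 pairs the sense gene was lower in 18 and higher in 14, and among all genes tested 9.95% were lower and 7.67% higher. The difference between these shares was not tested. Across the 160 pairs the log2 fold changes of both genes had a Spearman correlation of 0.23 and a Pearson correlation of 0.17, a description over pairs that share libraries and, in many cases, bases. Pairs with no exonic base in common with the partner were 28, and 11 of them had a lower and 1 a higher ratio. The share over all such pairs was not counted. Some of these genes, such as AL355488.1, lie in introns of the partner, so reads of the 2 genes could still fall at the same bases. The largest falls of the ratio were −1.72 for GAS6-AS1 over GAS6 (SE 0.26, limma adjusted p = 1.1e-07), −1.65 for AC124319.2 over RNF213 (SE 0.24, adjusted p = 4.54e-08), −1.52 for AC003102.1 over UBTF (SE 0.25, adjusted p = 2.29e-06), −1.52 for AL133230.1 over PTPN1 (SE 0.18, adjusted p = 5.85e-11) and −1.51 for AL355488.1 over SLC16A4 (SE 0.15, adjusted p = 6.84e-14). The ratio of AC006059.1 to NKTR, where both fell, was −0.13 (SE 0.24, limma adjusted p = 0.75).

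The 3 ratios that rose did so where the sense gene fell. AL513550.1 had 61, 93 and 74 counts in DMSO and 71, 57 and 87 at 1 μM, which overlapped, while PNISR, an SR-related nuclear protein gene, went from 3294, 4168 and 3567 to 2206, 1713 and 2017. PNISR fell by 0.91 (SE 0.08, edgeR adjusted p = 1.44e-05) and the ratio rose by 0.82 (SE 0.20, limma adjusted p = 0.00113). DNAH10OS over the axonemal dynein gene DNAH10 rose by 0.74 (SE 0.23, limma adjusted p = 0.011) and AC100810.1 over CLN8 by 0.51 (SE 0.18, adjusted p = 0.0274). Both of these calls were lost when a single sample was left out, with adjusted p of up to 0.113 and 0.0879. The 4 pairs with opposite calls, named after their values were seen, were AC003102.1 and UBTF, AL731571.1 and the corepressor gene CTBP2, AC008105.3 and the formin gene FMNL1, and H1FX-AS1 and the linker histone gene H1FX. H1FX-AS1 had 74, 75 and 66 counts in DMSO, 54, 46 and 43 at 0.3 μM, and 47, 39 and 40 at 1 μM, a log2 fold change of −0.79 (edgeR adjusted p = 0.0136), and H1FX rose by 0.41 (SE 0.08, adjusted p = 0.00238).

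Pairs that fell together included LENG8-AS1 and LENG8, DICER1-AS1 and DICER1, and TPM1-AS and the tropomyosin gene TPM1, also named after their values were seen. LENG8-AS1 had 79, 117 and 96 counts in DMSO and 42, 64 and 60 at 1 μM, and both genes fell by almost the same amount, 0.83 and 0.84 on the log2 scale (edgeR adjusted p = 0.0164 and 1.7e-05). DICER1-AS1 had 45, 64 and 41 counts in DMSO, 20, 40 and 27 at 0.3 μM, and 33, 23 and 15 at 1 μM. It fell by 1.10 (edgeR adjusted p = 0.019) and DICER1, the ribonuclease that cuts microRNA precursors, by 0.34 (SE 0.07, adjusted p = 0.00668). TPM1-AS had 53, 54 and 61 counts in DMSO, 43, 52 and 57 at 0.3 μM, and 42, 11 and 23 at 1 μM, all 3 of the last below the others, and fell by 1.17 (edgeR adjusted p = 0.0258) beside 0.34 (SE 0.06, adjusted p = 0.0015) for TPM1.

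**Figure D5:**
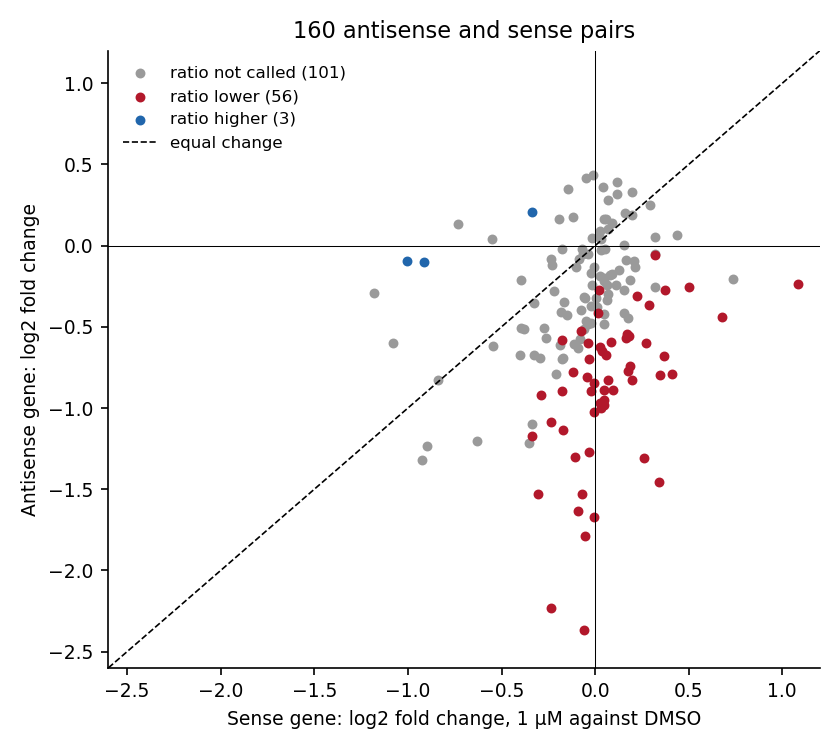
Each of 160 pairs is a point at the log2 fold change of the sense gene (horizontal) and of the antisense gene (vertical) at 1 μM against DMSO, coloured by the limma test of the ratio, with a dashed line for equal change. Most points lie below the line, and 56 ratios are lower (red) against 3 higher (blue).

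Genes that process or degrade antisense transcripts were read from lists of RNA surveillance factors. At 1 μM against DMSO the exosome core had 0 lower and 1 higher of 13 genes tested, the nuclear adaptors 2 lower and 0 higher of 13, Integrator 2 lower and 1 higher of 14, cleavage and polyadenylation factors 1 lower and 0 higher of 16, and factors acting on double-stranded RNA 3 lower and 1 higher of 9 (edgeR, adjusted p under 0.05). Among all genes tested 9.95% were lower and 7.67% higher, and with so few genes in each list these counts are a description from which nothing is read about the factors. The largest changes were INTS5, a subunit of Integrator, at 0.61 (SE 0.13), DDX58, the RNA sensor RIG-I, at 0.51 (SE 0.13) and the exosome gene EXOSC4 at 0.48 (SE 0.12). Among those that fell were PABPN1, the nuclear poly(A)-binding protein, at −0.42 (SE 0.09), DICER1 at −0.34 and INTS3 at −0.31 (SE 0.07). The list medians lay between −0.06 and 0.04, and their part in the antisense result was not tested.

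Because YK-4-279 is aimed at ETS factors, the promoters were searched for the ETS motif CCGGAAG on both strands. RefSeq promoters of GRCh38.p14, from 250 bases before to 50 after the start, were matched for 114 of the 200 genes. The motif was present in 14.9% of these, in 15.2% of the 33 whose gene was lower at 1 μM and in 14.8% of the other 81, beside 10.7% of all 27305 promoters. The motif GGGCGG was present in 64.9% (44.6% of all), and CCAAT in 38.6% (35.7% of all), or 51.5% of the genes that fell and 33.3% of the others. The median GC content was 65% against 58.3%. A match is a description of the sequence and not a binding site, and the differences in share were not tested. The start of the sense partner or divergent neighbour lay in the same window in 10.

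A set of 4 promoters is shown to set motif and change side by side, chosen after their values were seen, with ETS motif matches in capitals. AC124319.2 (chr17:80415119-80415418, minus strand) fell and has the motif on both strands in a single palindrome. CKMT2-AS1 (chr5:81301520-81301819, minus strand), with 132, 191 and 176 counts in DMSO and 156, 185 and 177 at 1 μM (log2 fold change 0.04, edgeR adjusted p = 0.89), has it once on each strand. LINC00894 (chrX:149938298-149938597, plus strand) fell and FGD5-AS1 (chr3:14948392-14948691, minus strand) did not pass the test, and neither promoter holds the motif.
AC124319.2: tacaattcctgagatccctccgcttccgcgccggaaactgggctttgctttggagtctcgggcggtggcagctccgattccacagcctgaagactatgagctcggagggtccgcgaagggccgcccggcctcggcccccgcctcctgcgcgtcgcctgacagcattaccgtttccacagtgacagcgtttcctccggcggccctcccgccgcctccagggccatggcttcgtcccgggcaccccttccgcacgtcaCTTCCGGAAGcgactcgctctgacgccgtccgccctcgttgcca
CKMT2-AS1: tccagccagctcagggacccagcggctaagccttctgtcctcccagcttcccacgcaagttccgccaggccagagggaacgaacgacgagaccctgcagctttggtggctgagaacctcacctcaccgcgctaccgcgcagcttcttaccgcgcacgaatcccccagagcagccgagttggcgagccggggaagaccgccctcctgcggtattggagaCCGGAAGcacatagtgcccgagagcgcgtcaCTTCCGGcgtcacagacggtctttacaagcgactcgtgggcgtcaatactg
LINC00894: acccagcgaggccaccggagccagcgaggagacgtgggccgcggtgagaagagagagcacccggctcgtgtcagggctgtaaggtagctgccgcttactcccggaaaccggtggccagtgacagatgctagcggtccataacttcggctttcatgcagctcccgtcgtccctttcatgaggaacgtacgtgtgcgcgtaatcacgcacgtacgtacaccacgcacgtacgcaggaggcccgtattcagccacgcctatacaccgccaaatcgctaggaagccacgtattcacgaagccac
FGD5-AS1: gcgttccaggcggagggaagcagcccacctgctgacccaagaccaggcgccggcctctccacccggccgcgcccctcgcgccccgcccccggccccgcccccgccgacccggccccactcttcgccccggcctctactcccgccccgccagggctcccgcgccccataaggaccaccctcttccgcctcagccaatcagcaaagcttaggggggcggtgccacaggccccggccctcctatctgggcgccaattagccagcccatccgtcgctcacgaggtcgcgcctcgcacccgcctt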

How the data were processed

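Per the methods, reads were trimmed of adaptors, filtered for quality and aligned by the authors to GRCh38 with HISAT2 (2.0.5 in the submitters' processing notes). The methods name HTseq for counting and the notes featureCounts 1.5.0-p3. The deposited counts are unnormalized whole numbers for each gene and sample, and the deposited FPKM values divide them by gene length and library size. Columns of the authors' own comparisons (log2 fold change, p-value and adjusted p-value, DESeq2) were not used. The methods name fewer replicates than the labels, and the 3 labelled samples per group were used.

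Counts were tested with edgeR 4.0.16 in R 4.3.3 (filterByExpr at a minimum count of 10, TMM, quasi-likelihood test of the groups compared) with Benjamini-Hochberg adjustment across the genes that passed the filter. Antisense to sense ratios were tested with limma 3.58.1 on TMM-scaled CPM. DESeq2 1.42.0 was an alternative. Sums and figures were made with Python 3.11.15. The fits were tested on simulated data. Gene positions, and so partners and arrangements, came from the deposited table. Exons came from GENCODE v44 on GRCh38, in which 99.1% of gene identifiers were found. Of these, 79.5% had the same start there.

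The genes named are the 10 most abundant, the 10 largest falls at 1 μM among called genes whose groups do not overlap, with 5 for 1 μM against 0.3 μM, the 2 lowest p at 0.3 μM, the 5 largest called ratio changes in each direction, the tied genes at the threshold, members of the list with described roles, and all partners. A few results of genes under this rule and of a marker are not reported here. Other genes named are said to be chosen after their values were seen. The members and lists were chosen with earlier results of these data known. Alternatives were RLE size factors, no filter, all 9 samples in a single fit, a replicate block, each sample left out, other choices of members and partners, and an offset of 0.1 CPM. Replicate numbers were taken not to pair the samples, as same-numbered samples deviated from their group means with correlations of −0.09 to 0.16. However, 7 of the 9 samples correlated best with a sample of their own number, and a replicate block was run as an alternative.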

Additional observations from a re-analysis of the deposited data

How the results depend on the processing

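Under DESeq2, RLE size factors, no filter and all 9 samples in a single fit, the number of the 200 antisense RNA genes called stayed within 1.5 times that reported, and 0 were called at 0.3 μM under any alternative run. Chosen by the mean of all 9 samples the median at 1 μM against DMSO was −0.28, and chosen by FPKM it was −0.51, or −0.28 against 0.3 μM. With pairs that share no exonic base, 12 ratios were called at 1 μM against DMSO and 8 against 0.3 μM, from 28 pairs. With the replicate block, 60 genes were called at 1 μM against DMSO, 0 at 0.3 μM and 43 at 1 μM against 0.3 μM, and 53, 0 and 38 ratios. The labels give only replicate numbers and do not say that they pair the samples. Still, 7 of the 9 samples correlated best with a sample of their own number. Whether same-numbered samples share a batch was not tested. Leaving out each sample in turn gave 44 to 57 genes called at 1 μM against DMSO, 23 to 41 against 0.3 μM, and 0 at 0.3 μM. The medians ranged from −0.35 to −0.32, from −0.30 to −0.21 and from −0.13 to −0.05 in that order, and the ratios called from 35 to 59, from 26 to 30 and at 0. At the lower end of the members' counts, about 47 reads, only large changes can be called in 3 against 3 samples.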
